A study of Mus musculus with 12 samples.

Results

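The comparison described here sets 3 RNA-seq libraries of mouse cortex labelled as p18-overexpressing at the embryonic stage E13.5 (titled p18mKO2+) against 3 libraries of normal cortex of the same stage (titled p18mKO2-), 6 of the 12 libraries in the series. The other 6 are the same groups at E16.5 and are used only where the stages are compared. All libraries were made from polyadenylated RNA of the ventricular zone, cut from dorsal cortex with a laser, and tamoxifen is recorded for all groups, the normal ones included. The overexpressing mice carry a cassette in the ROSA26 locus in which a stop sequence between loxP sites precedes the coding sequences of p18 and the orange fluorescent protein mKO2, so that Cre removes the stop and both proteins are made. The labels record the normal libraries as genotype normal and the others as p18mKO2 over-expression; the Cre driver, the day of tamoxifen and whether replicates are separate embryos or litters are not given in the sources used for this work. P-values therefore reflect only how far these libraries scatter, part of which may be technical. Groups follow the titles, and the total estimated count per library lay between 17101971 and 18974751 in p18mKO2- and between 19936564 and 21837088 in p18mKO2+.

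As background, p18 (p18INK4c, the product of Cdkn2c) belongs to the INK4 family, which binds the kinases CDK4 and CDK6 and keeps them from phosphorylating the retinoblastoma protein. While that protein is unphosphorylated it holds E2F transcription factors in check, and genes of DNA replication are little transcribed. Radial glia, the dividing stem cells whose bodies lie in the ventricular zone, give rise to intermediate progenitors and cortical neurons and later to astrocytes. New neurons leave the zone at once, so a cut through it holds mostly progenitors with a few newborn neurons.

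Transcripts of Y-linked genes and the X-inactivation transcript Xist showed that the groups differ in the sex of the tissue. Y-linked transcripts summed to at most 0.415 CPM in the 3 p18mKO2- libraries and to 0 in p18mKO2+ replicate 1, against 178 CPM in p18mKO2+ replicate 2 and 88.9 in replicate 3. Xist was between 1900 and 1960 CPM in the libraries without Y-linked transcripts, 3.57 CPM in p18mKO2+ replicate 2 and 1250 CPM in replicate 3, which thus holds transcripts of both kinds. A ribosomal RNA gene model, CT010467.1, took 5.32% to 8.8% of the count in p18mKO2- and 2.81% to 6.64% in p18mKO2+. On the first principal component of the 6 libraries, with 31.8% of the variance, the p18mKO2- libraries lay on one side and the p18mKO2+ libraries on the other.

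By counts, the overexpressed gene did not separate the groups, so this check of the labels failed. Cdkn2c (ENSMUSG00000028551, GRCm38 chromosome 4, 109660876 to 109667189, minus strand) had 27.6, 24.6 and 17.7 CPM in p18mKO2- replicates 1 to 3 and 22.9, 32.6 and 21.6 CPM in p18mKO2+. The groups overlapped, and the log2 change was 0.14 ± 0.26 (SE; edgeR quasi-likelihood test, Benjamini-Hochberg adjusted p = 0.798). Its deposited TPM, which also divides by transcript length, did not overlap, at 26.5, 21.4 and 16.1 against 27.7, 32.6 and 30.2 (exact two-sided permutation p = 0.1, the smallest that 3 against 3 can give). Directions below are those of the titles, and p18mKO2+ means the libraries labelled so. Gene totals do not separate the ROSA26 copy of Cdkn2c from the endogenous gene. The list of inhibitors of cyclin-dependent kinases, Cdkn2c included, gave no call. Of 7 listed genes 5 were expressed enough to test, with log2 changes between -0.57 and 0.14, and 0 passed in edgeR, 0 at an unadjusted p under 0.05 and 0 in DESeq2. Cdkn1b, which encodes p27, stood at 185, 163 and 169 CPM in p18mKO2- and at 190, 224 and 134 CPM in p18mKO2+.

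Across the transcriptome, p18mKO2+ libraries held less RNA of dividing progenitors and more RNA of neurons. In bulk tissue, fewer cells of a type and less RNA per cell cannot be told apart. Of 16798 genes tested, 1224 (7.29%) rose and 586 (3.49%) fell at an adjusted p under 0.05 (edgeR), 10.8% in either direction. The median log2 change of all genes was 0.01, and 4271 genes had an unadjusted p under 0.05. Genes that rose did so by a median log2 of 1.04, and 635 of them changed at least 2-fold and 167 at least 4-fold. Genes that fell did so by a smaller median, 0.78 on the log2 scale in absolute size, with 129 at least 2-fold and 13 at least 4-fold. The 6 values did not overlap between groups for 1194 of the genes that rose and 583 of those that fell, against 30.7% of all genes tested. Leaving out p18mKO2+ replicates 2 and 3, which hold Y-linked transcripts, left 405 higher and 39 lower calls with 1 library against 3. With replicate 3 alone left out the counts were 752 and 181, and with the ribosomal RNA gene as a covariate they were 581 and 148. On deposited TPM the median log2 change of all genes moved to 0.14 and the share of higher among called genes from 67.6% to 87.5%.

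**Figure D1:**
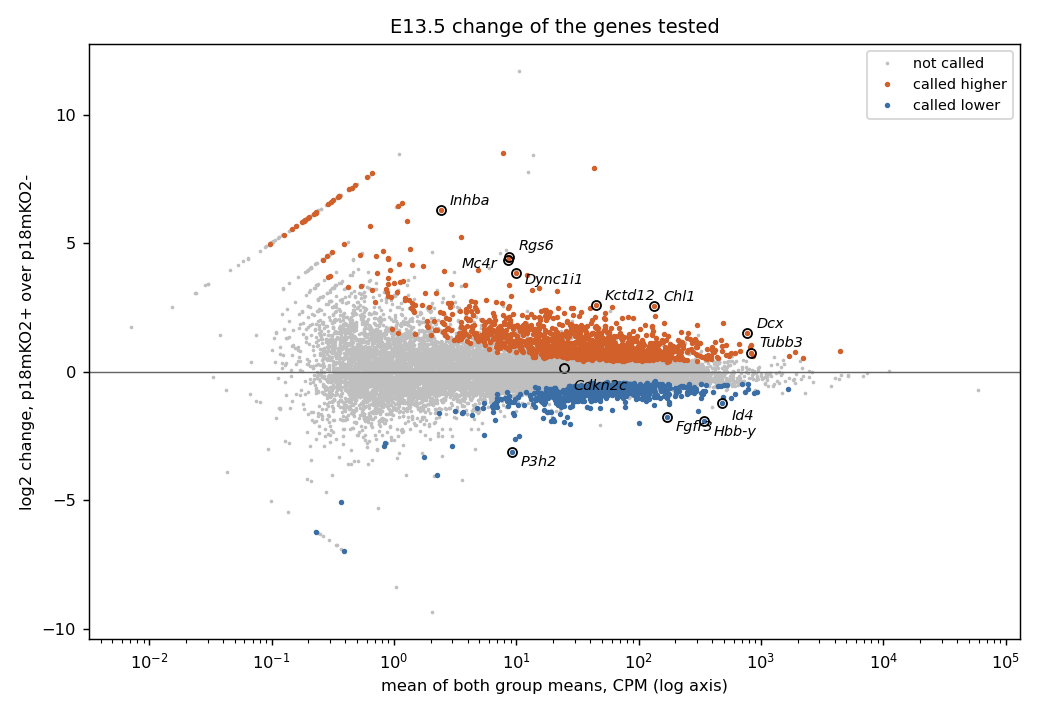
Log2 change of each tested gene at E13.5 (vertical axis, p18mKO2+ over p18mKO2-) against the mean of both group means in CPM (horizontal log axis), with called genes in colour and a few named genes circled. Called increases reach further from 0 than called decreases, and Cdkn2c lies near 0.

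Called increases and decreases also differed in gene length and in level. Protein-coding genes that rose spanned a median of 57.2 kb of the genome, with 37.1% longer than 100 kb, while those that fell spanned 21.7 kb with 11% longer than 100 kb; over all protein-coding genes tested the values were 25.4 kb and 15.9%. Their median transcript length was 3770 bases against 2150, and 2570 over all. By deposited TPM, a per-length scale, the genes that rose went from a median of 9.92 in p18mKO2- to 22.2 in p18mKO2+, and the genes that fell from 48.5 to 32.3. The libraries of a group were not equal in this. Called increases had a median log2 of 1.11 over the mean of the normal libraries in p18mKO2+ replicate 3, 0.98 in replicate 1 and 0.78 in replicate 2, and called decreases -0.91, -0.80 and -0.61. Replicate 2 thus lay nearest to the normal libraries and replicate 3 farthest in both directions. These medians are descriptions, since the same libraries chose the genes.

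**Figure D2:**
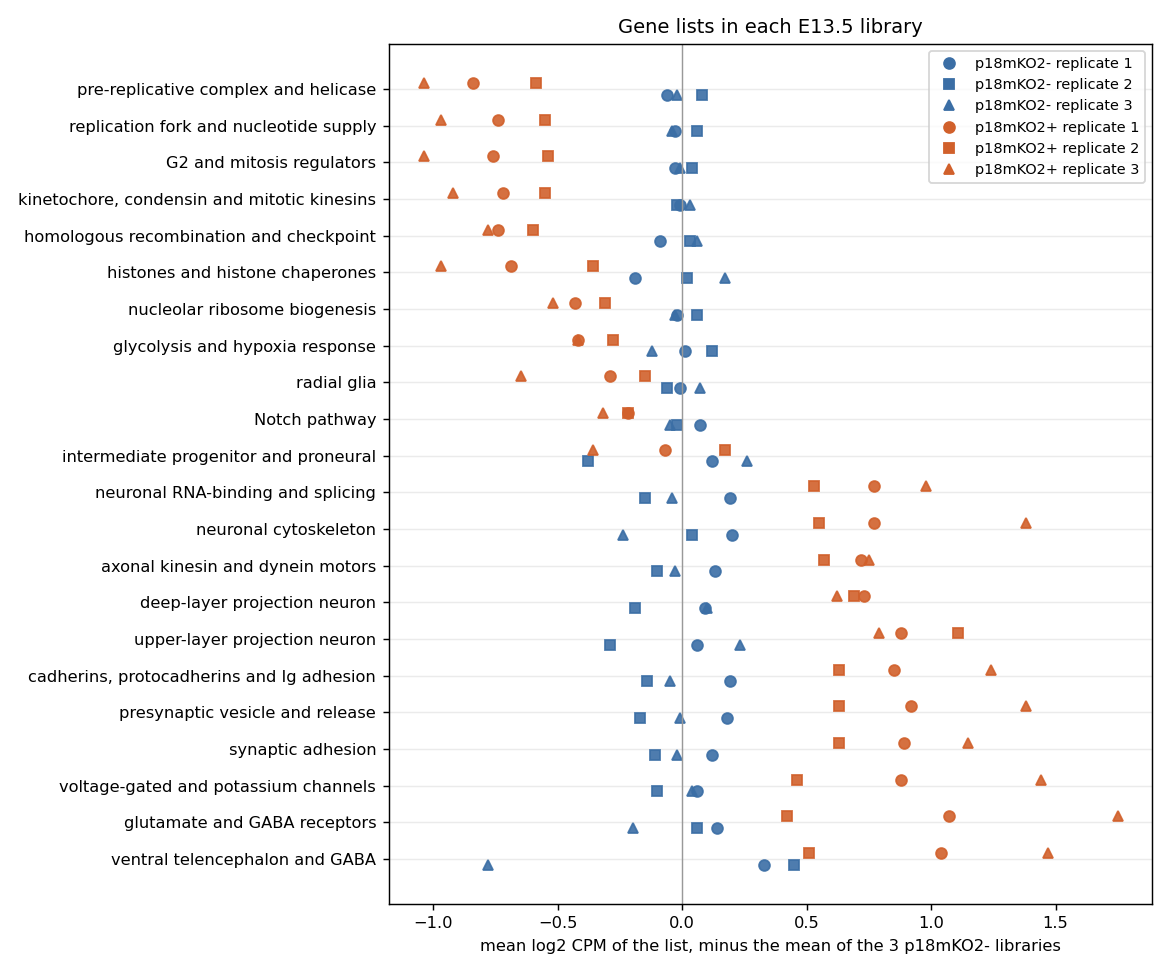
Mean log2 CPM of 22 gene lists in each of the 6 libraries, relative to the mean of the 3 p18mKO2- libraries (horizontal axis), with blue for p18mKO2- and orange for p18mKO2+ and a marker shape per replicate. Orange points lie left of the blue ones for replication and mitosis and right of them for neuronal lists, with p18mKO2+ replicate 2 nearest to blue in most rows.

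DNA replication genes were lower in p18mKO2+. Origins are prepared in G1 when the origin recognition complex, Cdc6 and Cdt1 load the Mcm helicase, and the replication fork then needs the sliding clamp, its loader, polymerases and nucleotide supply. Of 20 genes of the pre-replicative complex and helicase 13 fell, and of 30 genes of the fork and nucleotide supply 23 fell; all 50 had log2 changes below 0, with medians of -0.88 and -0.78 against 0.01 for all genes. The reference share is the 3.49% of all genes that fell, and for lists that rose it is the 7.29% of all genes that rose. Mcm2, a helicase subunit, had 227, 258 and 197 CPM in p18mKO2- and 123, 128 and 90 in p18mKO2+, a log2 change of -1.0 ± 0.26 (SE; edgeR adjusted p = 0.0266). Dbf4, the activator of the kinase that fires origins, had 104, 98.4 and 108 CPM against 47.9, 62.9 and 48.9 and the smallest p of its list (-0.96 ± 0.14, edgeR adjusted p = 0.000949). Gmnn, whose product geminin blocks Cdt1 after an origin has fired, fell by 1.03 on the log2 scale, so loading factors and their inhibitor were both lower. At the fork, Pcna, the sliding clamp, had 375, 421 and 438 CPM against 237, 279 and 180. Dut, which removes dUTP, changed by -1.06 ± 0.17, and Rrm2, the regulated subunit of ribonucleotide reductase, by -0.78 ± 0.19. In each of these genes the highest p18mKO2+ value was below the lowest p18mKO2- value, as in 583 of the 586 genes that fell.

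How many replication genes passed depended on the libraries, at medians that moved less. Without p18mKO2+ replicate 1 the lists had 2 and 8 calls, without replicate 3 they had 1 and 7, and without replicate 2 they had 13 and 20. Without p18mKO2- replicates 1, 2 and 3 in turn they had 7 and 15, 3 and 11, and 6 and 15. The medians stayed between -1.02 and -0.78 for the first list and between -0.88 and -0.66 for the second. Without both libraries that hold Y-linked transcripts, 1 and 3 genes passed at medians of -0.88 and -0.79. With the ribosomal RNA covariate 1 and 6 passed (medians -0.70 and -0.59), and on TPM 2 and 7 (-0.68 and -0.56).

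The 4 promoters below show letters that E2F factors are known to read. The search used TTTCCCGC, TTTCGCGC, TTTGCCGC and TTTGGCGC on both strands of RefSeq windows on GRCm38.p6, from 250 bases before to 50 bases after each start. Any of these was present for 8 of 26 fork genes with a window (30.8%), for 12.1% of 470 genes that fell (80.6% of the fallen genes had a window) and for 2.6% of all promoters in the table. Of the tested genes only 69.7% had a window, and 4.63% of those held a motif. Only 75% of the pre-replicative genes had a window, and 8 of those 15 held a motif (53.3%). Of the genes that rose 75.2% had a window, and 3.16% of those held a motif. Genes without a window are not covered by these shares. Below are the 150 bases before the start, 5′ to 3′ on the gene's strand, of fallen replication genes that hold a motif there, with the motif in capitals. They were chosen after their values were seen.
Orc1, chr4:108579304-108579453, plus strand: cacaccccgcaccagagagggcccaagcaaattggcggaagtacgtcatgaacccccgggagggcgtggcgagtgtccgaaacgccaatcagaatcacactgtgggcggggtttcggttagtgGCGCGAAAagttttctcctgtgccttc
Cdc6, chr11:98908001-98908150, plus strand: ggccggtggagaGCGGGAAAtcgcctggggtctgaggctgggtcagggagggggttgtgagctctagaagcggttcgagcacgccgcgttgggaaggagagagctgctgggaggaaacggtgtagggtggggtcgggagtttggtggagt
Mcm5, chr8:75109359-75109508, plus strand: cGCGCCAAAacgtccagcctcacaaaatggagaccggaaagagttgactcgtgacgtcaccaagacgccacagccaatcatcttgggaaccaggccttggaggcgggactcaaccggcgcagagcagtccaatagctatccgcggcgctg
Rfc3, chr5:151651209-151651358, minus strand: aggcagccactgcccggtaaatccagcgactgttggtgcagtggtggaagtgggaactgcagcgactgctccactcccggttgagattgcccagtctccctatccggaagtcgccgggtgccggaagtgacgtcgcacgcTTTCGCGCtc

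All 4 genes fell, with groups that did not overlap, as for 583 of the 586 genes that fell. Orc1, the large subunit of the origin recognition complex, had 9.24, 10.8 and 8.07 CPM in p18mKO2- and 4.07, 3.79 and 2.65 in p18mKO2+ (log2 change -1.42 ± 0.37, edgeR adjusted p = 0.0257). Its motif begins 27 bases before the start and reads on the minus strand. Cdc6 had 35.6, 34.1 and 34 CPM against 17.9, 21.2 and 14.5, and Mcm5 had 178, 199 and 144 CPM against 90.4, 112 and 71.6. Rfc3, part of the clamp loader, changed least of these, from 51.5, 63.1 and 65.6 CPM to 34.6, 50.5 and 38 (-0.55 ± 0.16). A match is a description of letters and does not show that a factor bound there.

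Mitotic genes were lower too. Of 27 regulators of G2 and mitosis 15 fell, and of 26 genes of kinetochores, condensin and mitotic kinesins 15 fell, with medians of -0.79 and -0.77. All 53 had log2 changes below 0 and groups that did not overlap, where 30.7% of all genes tested had no overlap. Mki67, a coat protein of mitotic chromosomes widely used to mark cycling cells, had 886, 927 and 977 CPM in p18mKO2- and 523, 580 and 508 in p18mKO2+ (-0.79 ± 0.15, edgeR adjusted p = 0.00508). Ccnb2, a mitotic cyclin, had 94.6, 94 and 85.5 CPM against 43.8, 57.4 and 39.6. Its partner kinase Cdk1 had 140, 134 and 136 CPM against 79.7, 99.8 and 57.6 and was closer to the threshold (-0.79 ± 0.23, edgeR adjusted p = 0.0425). Aurkb, the kinase that corrects chromosome attachment, changed by -0.92 ± 0.20, and Mad2l1, a spindle checkpoint protein, by -0.70 ± 0.14. Among kinetochore genes, Spc24 had 50.7, 57.7 and 54.2 CPM against 23.6, 32.2 and 23.3 and Cenph 30, 28.5 and 39.2 against 13.3, 18.2 and 13.7. Kif11, the motor that separates spindle poles, had 263, 240 and 256 CPM against 178, 178 and 154 and was not called (-0.57 ± 0.20, edgeR adjusted p = 0.0883). The counts moved with single libraries here too. They were 4 and 6 without p18mKO2+ replicate 1, 3 and 5 without replicate 3, and 10 and 8, 7 and 8, and 9 and 10 without p18mKO2- replicates 1, 2 and 3, at medians between -0.86 and -0.65. Without the libraries that hold Y-linked transcripts 0 and 1 passed, at medians of -0.78 and -0.76. With the ribosomal RNA covariate 3 and 4 passed (medians -0.58 and -0.64), and on TPM 2 and 3 (-0.62 and -0.61).

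A cell-cycle homology region, TTTGAA, is known from promoters of late cell-cycle genes, which the DREAM complex represses in resting cells. It was found on either strand in 17 of 23 kinetochore, condensin and kinesin genes with a window (73.9%), against 20.2% of all promoters in the table and 14.4% of the tested genes that had a window. Among all genes that fell the share was 21.3%, against 14.2% of the protein-coding genes tested that had a window. The whole table is a looser reference, since its promoters held 53.8% G and C against 61.3% in the fallen genes. The 3 below fell and hold it shortly before the start, shown here in capitals in the 150 bases before the start and again chosen with their values known.
Ncapg, chr5:45669775-45669924, plus strand: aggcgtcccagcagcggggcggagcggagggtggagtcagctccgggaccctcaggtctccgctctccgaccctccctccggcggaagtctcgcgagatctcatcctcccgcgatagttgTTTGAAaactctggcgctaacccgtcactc
Kif22, chr7:127042421-127042570, minus strand: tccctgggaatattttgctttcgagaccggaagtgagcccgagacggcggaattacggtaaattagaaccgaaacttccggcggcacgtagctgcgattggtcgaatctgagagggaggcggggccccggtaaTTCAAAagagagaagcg
Kif15, chr9:122950931-122951080, plus strand: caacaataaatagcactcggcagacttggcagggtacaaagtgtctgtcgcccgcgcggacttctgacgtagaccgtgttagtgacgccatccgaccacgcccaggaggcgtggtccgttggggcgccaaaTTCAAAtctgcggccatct

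The motif begins 30, 17 and 19 bases before the start in Ncapg, Kif22 and Kif15. Ncapg, a condensin subunit, had 115, 113 and 137 CPM in p18mKO2- and 76.4, 70.3 and 57.3 in p18mKO2+. Kif22, which moves chromosome arms, had 102, 104 and 110 CPM against 60.6, 72.6 and 48.9. Kif15, a spindle kinesin, had 125, 124 and 101 CPM against 63.5, 70.8 and 57.7 (-0.87 ± 0.22, edgeR adjusted p = 0.025). In all 3 genes the groups did not overlap, as for 583 of the 586 genes that fell.

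Of 21 genes of G1 cyclins, kinases, pocket proteins and E2F factors, through which p18 acts, 5 fell and 1 rose (median -0.51), beside 3.49% lower and 7.29% higher among all genes. DESeq2 called 9 lower and limma on TPM 0. Ccnd1, the cyclin D partner of Cdk4, had 98.5, 122 and 97.7 CPM in p18mKO2- and 64, 73.7 and 124 in p18mKO2+, and Cdk4 had 670, 613 and 670 against 522, 616 and 441; neither was called (edgeR adjusted p = 0.493 and 0.218). Ccne1, cyclin E, itself under E2F control, had 34.1, 38.7 and 27.8 CPM against 10.8, 14.6 and 13.8 (-1.36 ± 0.26, edgeR adjusted p = 0.00527). E2f8, a repressor E2F made in S phase, fell by 1.04 on the log2 scale, the pocket protein gene Rbl1 by 0.84 and the E2F partner Tfdp1 by 0.51. The gene that rose was Rb1, the retinoblastoma gene, named after its values were seen, with 80.2, 65.4 and 66 CPM against 111, 94.2 and 95.3 (0.50 ± 0.15, edgeR adjusted p = 0.0441). Lower calls numbered 1 without p18mKO2+ replicate 3, 3 without p18mKO2- replicate 1 or 2 or p18mKO2+ replicate 1, and 4 without either other library, and a higher call was made only without p18mKO2- replicate 1.

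Genes that guard replicating DNA and genes of the centrosome were lower as well. Of 23 genes of homologous recombination and checkpoint 14 fell (median -0.75), among them the kinase gene Chek1 from 57.9, 58.2 and 63.6 CPM to 32.1, 36.2 and 30.1 (-0.87 ± 0.15, edgeR adjusted p = 0.00341). Bard1, the partner of Brca1, changed by -1.01 ± 0.19 and Rad54l by -0.92 ± 0.18. Of 16 p53 genes and targets 1 rose, Trp53inp1, from 90.7, 68.6 and 91 CPM to 160, 155 and 133 (0.84 ± 0.13, edgeR adjusted p = 0.00182), and the median of -0.11 turned to 0.07 on TPM. Among all genes tested 7.29% rose. Of 15 centrosome genes tested, many known from inherited microcephaly, 5 fell (median -0.53). Wdr62, a spindle pole protein, had 32.1, 35 and 35.9 CPM against 15.1, 16.9 and 16.7, and Aspm, which focuses spindle poles, had 136, 148 and 138 against 85, 94.8 and 82.7. Without 1 library the recombination list had 9 (p18mKO2- replicate 1), 8 (replicate 2), 10 (replicate 3), 6 (p18mKO2+ replicate 1), 12 (replicate 2) and 5 (replicate 3) calls. The centrosome list had between 0 calls, without p18mKO2+ replicate 1, and 2, without p18mKO2- replicate 2 or p18mKO2+ replicate 2, and 1 without each of the other libraries. With the ribosomal RNA covariate the recombination list had 3 calls (median -0.64) and on TPM 1 (-0.48). The centrosome list had 0 calls in both (medians -0.43 and -0.32).

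Some genes of histones, ribosome assembly and glycolysis were lower. Of 24 histone and chaperone genes 6 fell (median -0.75). H2afx, the variant marked at DNA breaks, had 271, 252 and 262 CPM in p18mKO2- and 124, 171 and 114 in p18mKO2+ (-0.94 ± 0.16, edgeR adjusted p = 0.00271). Of 28 nucleolar genes 11 fell (median -0.45), with Npm1, nucleophosmin, at 1080, 1110 and 1330 CPM against 643, 765 and 656 and Nop56, a box C/D particle protein, at 262, 291 and 407 against 167, 177 and 181. Of 55 ribosomal protein genes 1 fell, Rps2, although all 55 had log2 changes below 0 (median -0.40); edgeR left the other 54 above the threshold, and DESeq2 called 8. Of 22 glycolysis and hypoxia genes 8 fell and 1 rose (median -0.50). Ldha, lactate dehydrogenase, had 428, 522 and 334 CPM against 224, 257 and 163 (-1.0 ± 0.20, edgeR adjusted p = 0.00645), and Pgam1 had 420, 432 and 405 against 238, 300 and 217. Hk1, the hexokinase bound to mitochondria, moved the other way, from 41.4, 35.4 and 29.4 CPM to 62.4, 46.4 and 75.8. Nucleolar calls numbered 6, 3 and 7 without p18mKO2- replicates 1 to 3 and 2, 11 and 3 without p18mKO2+ replicates 1 to 3, and glycolysis calls 5, 2 and 8 and then 3, 8 and 2. With the ribosomal RNA covariate 3 nucleolar and 3 glycolysis genes fell (medians -0.38 and -0.39). On TPM 3 and 2 fell (medians -0.35 and -0.32). Hk1 lost its call without p18mKO2- replicate 3 or p18mKO2+ replicate 1 or 3, and Rps2 kept its call only without p18mKO2- replicate 1 or p18mKO2+ replicate 2, where 1 and 5 ribosomal protein genes were called.

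Radial glia transcripts fell in part. Markers of radial glia were abundant in every library, and their 21 genes summed to between 5130 and 5500 CPM in p18mKO2- and between 3290 and 4410 in p18mKO2+. This matches the labelled zone but does not single it out. The neuronal cytoskeleton list described below summed to between 10700 and 13600 CPM in p18mKO2-. Of the 21 radial glia genes, 8 fell and 2 rose (median -0.59). Id4, a helix-loop-helix protein that holds back differentiation, had 647, 655 and 729 CPM in p18mKO2- and 265, 312 and 288 in p18mKO2+ (-1.23 ± 0.14, edgeR adjusted p = 0.000193). Emx2, a homeobox factor of the dorsal cortex, had 123, 132 and 145 CPM against 62.8, 76 and 58.4. Sox2, a factor of neural stem cells, changed by -0.59 ± 0.14, and Pax6, which opens the neurogenic programme, had 183, 177 and 259 CPM against 138, 150 and 106 and was not called (edgeR adjusted p = 0.0607). The 2 that rose were Tnc and Ptprz1. Tnc, which encodes the matrix protein tenascin C, went from 16.6, 15.8 and 16.6 CPM to 81.8, 75.4 and 43.5 (2.03 ± 0.22, edgeR adjusted p = 0.000127), and the receptor phosphatase gene Ptprz1 from 270, 285 and 292 to 468, 423 and 399. Both were called in every fit that left out 1 library. The count that fell was 4, 5 and 5 without p18mKO2- replicates 1 to 3 and 3, 9 and 4 without p18mKO2+ replicates 1 to 3. It was 2 with the ribosomal RNA covariate (median -0.46) and 2 on TPM (-0.42).

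Intermediate progenitor genes showed no common direction. Their 18 genes summed to between 1550 and 2800 CPM in p18mKO2- and between 1700 and 2880 in p18mKO2+, and 3 fell (median -0.15, which turned to 0.03 on TPM). Eomes, which marks these cells, had 446, 212 and 428 CPM against 314, 337 and 148 and was not called. Neurog1, a proneural factor, went from 28.5, 22 and 30.2 CPM to 9.07, 11.8 and 6.02 (-1.58 ± 0.42, edgeR adjusted p = 0.0283). Notch signalling from these cells keeps their radial glia neighbours undifferentiated. Of 22 Notch pathway genes 4 fell (median -0.24): the ligand gene Dll1 at 115, 107 and 144 CPM against 71.7, 71 and 80.2, and the target genes Hes5 at 49.4, 39.6 and 51.2 against 17.1, 28.9 and 27.7, Hes1 at 40.8, 41.6 and 49.5 against 18.8, 28 and 16, and Hey1 at 68.6, 56.7 and 53.2 against 37.1, 45.4 and 24.4. The receptor gene Notch1 had 241, 264 and 209 CPM against 203, 218 and 164 (edgeR adjusted p = 0.598). Between 0 calls, without p18mKO2- replicate 3 or p18mKO2+ replicate 1, and 4, without p18mKO2+ replicate 2, were made in the Notch list when 1 library was left out. The count was 1 without p18mKO2- replicate 1 and 2 without p18mKO2- replicate 2 or p18mKO2+ replicate 3. With the ribosomal RNA covariate the Notch list had 0 calls (median -0.16) and on TPM 1 (-0.09). In the progenitor list the falling count was 1, 4 and 0 without p18mKO2- replicates 1 to 3 and 0, 4 and 1 without p18mKO2+ replicates 1 to 3.

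Factors that set up cortical areas were split. Of 20 such genes 5 fell and 1 rose (median -0.04, against 0.05 on TPM). Nr2f1, a nuclear receptor graded from caudal to rostral cortex, had 513, 391 and 464 CPM in p18mKO2- and 137, 127 and 212 in p18mKO2+ (-1.52 ± 0.26, edgeR adjusted p = 0.00255). Dmrta2 had 62.8, 54.2 and 50.7 CPM against 25.5, 35.6 and 15.7, and its relative Dmrt3 40.4, 36.9 and 39.2 against 13, 12.8 and 4.4; both are transcription factors high in medial and caudal cortex. Otx1 fell by 0.72 on the log2 scale. Etv1, an ETS factor that responds to FGF, rose from 15.1, 10.7 and 12.9 CPM to 32.3, 29.6 and 28.9. The position of each cut along the cortex is not recorded in the labels, so a shift in the place of the cut and a change in these genes cannot be told apart. Falling calls numbered 3, 4 and 2 without p18mKO2- replicates 1 to 3 and 2, 5 and 1 without p18mKO2+ replicates 1 to 3.

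FGF signalling genes changed at both ends. Fgfr3, a receptor gene of radial glia and later of astrocytes (GRCm38 chromosome 5, 33721674 to 33737068), had 323, 250 and 215 CPM in p18mKO2- and 74.8, 78.9 and 80.5 in p18mKO2+ (-1.75 ± 0.40, edgeR adjusted p = 0.0127). Fgfr2, its relative, named after its values were seen, changed by -0.60 ± 0.16 (edgeR adjusted p = 0.0241). The ETS factor gene Etv5, a target of the FGF and ERK cascade, rose from 17.2, 18.6 and 13.9 CPM to 57.2, 54.4 and 33.7 (1.55 ± 0.19, edgeR adjusted p = 0.000306), together with Etv1 above. Of 23 genes of this pathway 4 rose and 2 fell (median 0.37). Beside this and the counts below, 7.29% of all genes tested rose and 3.49% fell. Of 33 Wnt pathway genes 3 fell (median -0.58): Tcf7l1, a transcription factor that represses Wnt targets, from 99.3, 78.5 and 87.2 CPM to 34.2, 36.2 and 25.6, the ligase gene Znrf3, which clears Wnt receptors, by 0.72 on the log2 scale, and the receptor gene Fzd8 by 0.75. The target gene Axin2 had 51.9, 72.8 and 37.6 CPM against 32.8, 31.4 and 34.9 and was not called (edgeR adjusted p = 0.0997). Of 11 Hedgehog genes tested 2 fell, the signal transducer Smo by 0.77 and the co-receptor Boc by 0.74. Of 34 BMP, activin and TGF-beta genes 2 fell and 1 rose (median 0.03), no larger a share than the 10.8% called among all genes, with Smad3 at 61.5, 73.7 and 51.4 CPM against 32.5, 31.5 and 31.8. These short counts were not stable. Wnt calls numbered 1 without p18mKO2+ replicate 1 and 5 without p18mKO2- replicate 3, Hedgehog calls 0 without p18mKO2+ replicate 3, 3 without replicate 2 and 1 without each of the other libraries. The falling FGF count was 0 without p18mKO2+ replicate 1 and 1 without p18mKO2- replicate 2 or 3 or p18mKO2+ replicate 3. The falling BMP count was 2 without p18mKO2- replicate 3 and 1 without each other library, and the rising count was 2 without p18mKO2+ replicate 3.

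**Figure D3:**
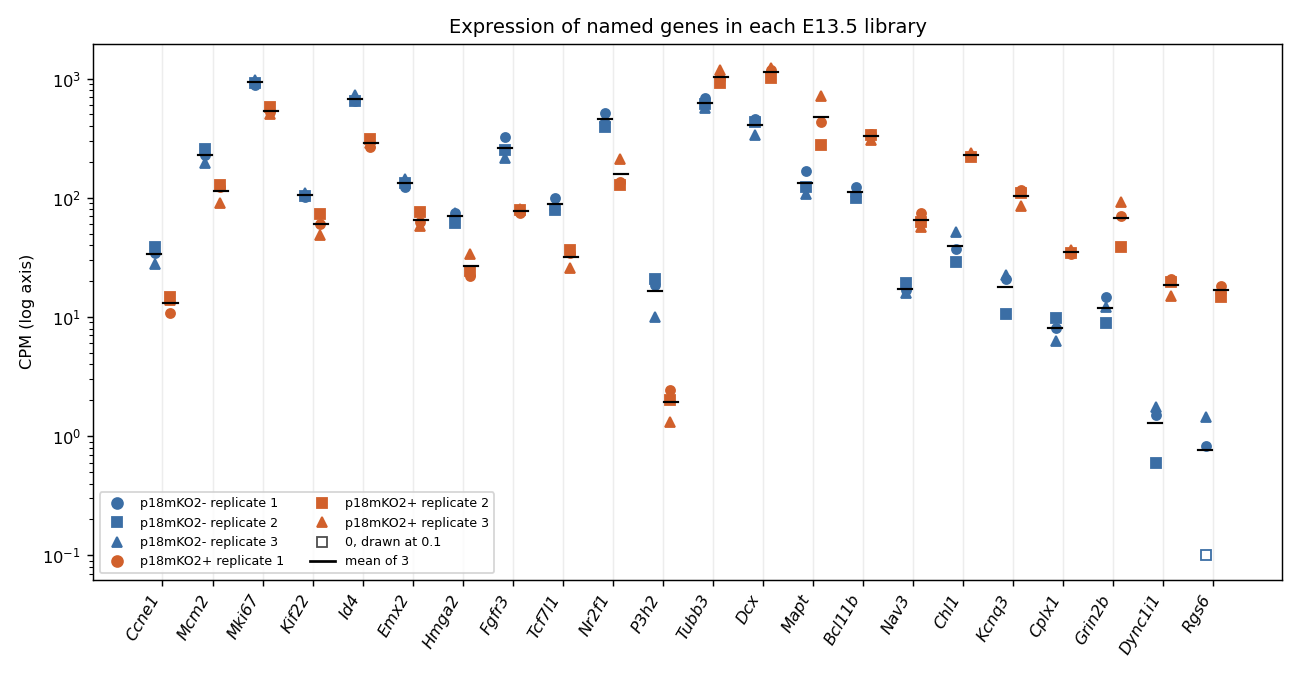
CPM of 22 genes (log axis) in each of the 6 E13.5 libraries, blue for p18mKO2- and orange for p18mKO2+, with a marker shape per replicate and black lines at the means of 3. The groups are apart for each gene drawn, with cell-cycle and progenitor genes lower in p18mKO2+ and neuronal genes higher. The genes were chosen with their values known, so their separation is no further evidence. Among all genes tested the groups did not overlap for 30.7%.

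Genes of the neuronal cytoskeleton were higher in p18mKO2+. Their 24 genes summed to between 10700 and 13600 CPM in p18mKO2- and between 18500 and 23600 in p18mKO2+, 17 of 24 rose, and all 24 had log2 changes above 0 (median 0.99). Tubb3, the beta-tubulin of neurons, had 684, 613 and 562 CPM in p18mKO2- and 1000, 918 and 1180 in p18mKO2+ (0.74 ± 0.14, edgeR adjusted p = 0.00579). Dcx, a microtubule-associated protein of migrating neurons (GRCm38 chromosome X, 143855842 to 143933311), had 454, 433 and 334 CPM against 1190, 1020 and 1220 (1.49 ± 0.15, edgeR adjusted p = 0.000107). Mapt, which encodes tau, had 168, 124 and 108 CPM against 433, 275 and 708, so that replicate 2 was lowest and replicate 3 highest of the p18mKO2+ libraries. Crmp1 and Dpysl3, which relay semaphorin signals to microtubules, changed by 1.01 ± 0.16 and 1.05 ± 0.17. Of 18 genes of axonal motors 8 rose (median 0.43). Dync1i1, the neuronal intermediate chain of dynein, went from 1.51, 0.597 and 1.75 CPM to 20.7, 19.8 and 15.1 (3.85 ± 0.36, edgeR adjusted p = 4.38e-05), and Kif5a, a conventional kinesin of neurons, from 81.1, 47.9 and 59.4 to 173, 137 and 195. The cytoskeleton list kept between 12 and 19 calls when 1 library was left out and 8 without the libraries that hold Y-linked transcripts, and 9 with the ribosomal RNA covariate. The motor list fell to 5 without p18mKO2- replicate 2 or p18mKO2+ replicate 1 or 3.

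Neuronal RNA-binding proteins, which steer splicing as neurons mature, rose in 12 of 19 cases (median 0.73). Rbfox1 had 12.4, 7.43 and 6.84 CPM in p18mKO2- and 47.5, 43.9 and 57 in p18mKO2+ (2.47 ± 0.23, edgeR adjusted p = 4.24e-05). Rbfox2 had 236, 198 and 155 CPM against 429, 359 and 432, and Nova2 142, 115 and 102 against 236, 203 and 247. Rbfox3, which encodes the late neuronal marker NeuN, had 48, 30.2 and 52.6 CPM against 56.6, 60.7 and 62.1 and was not called (0.46 ± 0.17, edgeR adjusted p = 0.106). Without p18mKO2- replicate 2 or p18mKO2+ replicate 1 the list had 6 calls. Markers of ventral telencephalon and GABA neurons stood beside these neuronal changes. Their 18 genes summed to 542, 715 and 339 CPM in p18mKO2- and to 867, 782 and 1250 in p18mKO2+. Of the 18, 2 rose in edgeR, beside 7.29% of all genes tested, and 6 were called in DESeq2 and in limma-voom. The log2 change was above 0 for 17 of 18, and the median was 1.02, similar in size to the medians of the neuronal lists. Between the E16.5 groups, where 0 genes were called, the ventral median was 1.22. The medians of the neuronal lists lay between -0.26 and 0.19 there. The part of the ventral markers in the rise of the neuronal lists was not tested.

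Some genes of both deep and upper cortical layers rose. Of 13 deep-layer genes tested 6 rose and 1 fell (median 0.78), and of 13 upper-layer genes 7 rose and 1 fell (median 0.91). The deep-layer genes summed to between 649 and 905 CPM in p18mKO2- and between 1260 and 1470 in p18mKO2+. The upper-layer sums overlapped, at 1630, 1450 and 1620 CPM against 1650, 1940 and 1370, and so did their sums of TPM, at 797, 721 and 634 against 680, 762 and 570. Bcl11b, which directs neurons to subcortical targets, had 123, 100 and 112 CPM in p18mKO2- and 343, 339 and 304 in p18mKO2+ (1.56 ± 0.19, edgeR adjusted p = 0.000387). Sox5, which times the birth of deep-layer neurons, had 105, 68.2 and 111 CPM against 295, 282 and 175. Tbr1, a layer 6 factor, had 152, 90.1 and 206 CPM against 308, 309 and 254 and lay just inside the threshold (0.96 ± 0.29, edgeR adjusted p = 0.05 after rounding). Mef2c went from 15.8, 10.7 and 22.9 CPM to 72.7, 72.3 and 68.7, Pou3f2 from 71.6, 63.6 and 105 to 189, 227 and 175, and Cux2 from 45.7, 39.8 and 56 to 72.7, 91.5 and 102. Inhba, an activin subunit counted in the upper-layer list, had 3, 0 and 0 counts in p18mKO2- and 87, 125 and 103 in p18mKO2+, so the rate was 89.9 times higher (95% counting interval 30.5 to 438). The genes that fell, the nuclear receptor gene Nr4a2 (-1.06 ± 0.30) and the progenitor factor Lhx2 (-0.97 ± 0.24), were named after their values were seen. Upper-layer calls numbered 7 in every fit that left out 1 library, and deep-layer calls between 5 and 7. The falling call of the deep-layer list was lost in every fit without 1 library except that without p18mKO2+ replicate 3, and the falling call of the upper-layer list was lost without p18mKO2- replicate 1 or p18mKO2+ replicate 1 or 3.

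Many adhesion genes and some guidance genes rose. Of 39 cadherins, protocadherins and immunoglobulin-type adhesion genes 21 rose (median 0.95). Chl1, a relative of L1 that guides cortical neurites, had 36.9, 29.2 and 51.6 CPM in p18mKO2- and 224, 222 and 239 in p18mKO2+ (2.54 ± 0.27, edgeR adjusted p = 0.000124). Cdh12, a type II cadherin, had 0.363, 0.217 and 0.351 CPM against 4.75, 3.38 and 6.23, and Opcml 6.49, 5.26 and 4.33 against 25.5, 28.5 and 31.4. Cdh2, the N-cadherin of progenitor junctions, had 422, 350 and 325 CPM against 508, 467 and 388 and was not called (0.31 ± 0.14, edgeR adjusted p = 0.192). Of 38 guidance genes 9 rose and 1 fell (median 0.46). The genes of the Robo family moved apart. Robo1 went from 47, 67.2 and 31.4 CPM to 162, 110 and 196 and Robo2 from 103, 56.4 and 94.2 to 212, 251 and 244. Robo3 fell from 31.7, 40.5 and 59.5 to 6.21, 4.94 and 21.3 (-2.02 ± 0.46, edgeR adjusted p = 0.0137). Dcc, the netrin receptor, changed by 0.95 ± 0.18 and Unc5d by 1.77 ± 0.23. The adhesion list kept between 15 and 22 calls when 1 library was left out and 15 without the libraries that hold Y-linked transcripts. Guidance calls were 5 without p18mKO2- replicate 1 or 2, and Robo3 lost its call without p18mKO2- replicate 3 or p18mKO2+ replicate 1.

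Genes for transmitter release and synaptic contacts rose. Of 30 presynaptic genes 18 rose (median 1.09), and of 29 synaptic adhesion genes 15 rose (median 1.0). Cplx1, complexin, which clamps vesicle fusion, had 8.15, 9.71 and 6.26 CPM in p18mKO2- and 33.8, 34.6 and 36.3 in p18mKO2+ (2.12 ± 0.20, edgeR adjusted p = 4.24e-05). Rab3a and Rab3c, vesicle GTPases, went from 50.9, 33.8 and 44.6 CPM to 107, 104 and 116 and from 63, 58.3 and 50.9 to 180, 142 and 274. Bsn, the active zone scaffold bassoon, had 28.7, 23.8 and 19 CPM against 60.5, 59.2 and 89.2. Snap25, a fusion protein, had 43.7, 35.1 and 61 CPM against 92, 87 and 115 and just missed the threshold (1.07 ± 0.33, edgeR adjusted p = 0.051). Clstn2, a calsyntenin, had 5.09, 6.84 and 6.78 CPM against 33.6, 29.2 and 31.1 (2.33 ± 0.18, edgeR adjusted p = 4.24e-05). The synaptic adhesion gene Nlgn1 had 26.4, 17.7 and 15 against 27.8, 22.5 and 27.5 and was not called. In fits without 1 library the lists kept 14 to 19 and 10 to 17 calls.

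Receptors and channels rose as well, more in p18mKO2+ replicate 3 than in the others. Of 31 glutamate and GABA receptor genes 11 rose (median 1.33), and the list's mean log2 over the normal libraries was 1.07, 0.42 and 1.75 in p18mKO2+ replicates 1 to 3. Grin2b, the NMDA receptor subunit of early neurons, had 14.8, 8.9 and 12.1 CPM in p18mKO2- and 70.4, 39 and 92.8 in p18mKO2+ (2.49 ± 0.30, edgeR adjusted p = 0.000319). The AMPA receptor gene Gria2 had 201, 154 and 357 against 374, 415 and 438 with no call (0.79 ± 0.33, edgeR adjusted p = 0.153). Of 37 channel genes tested 17 rose (median 1.14). Kcnq3, which carries the M current, had 20.9, 10.6 and 22.3 CPM against 116, 110 and 85 (2.53 ± 0.23, edgeR adjusted p = 4.24e-05), and the calcium channel gene Cacna1e 27.7, 20.9 and 35.2 against 97.5, 72.1 and 102. Scn2a, a sodium channel of the axon, had 6.9, 7.49 and 6.26 CPM against 15.8, 9.96 and 37.9. Without p18mKO2+ replicate 2 the receptor list had 17 calls, in limma-voom 6, with the ribosomal RNA covariate 4 (median 0.74) and without the libraries that hold Y-linked transcripts 3. Without p18mKO2+ replicate 3 the channel list had 11, as with the ribosomal RNA covariate (median 0.68), and on TPM or without the libraries that hold Y-linked transcripts it had 10. Of 27 genes for neuropeptides, their receptors and G-protein regulators tested, 6 rose, 5 or 6 in each fit without 1 library, and Rgs6, described below, is among them.

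Among genes with a mean TPM of 5 or more in p18mKO2+, many of the largest increases were of genes barely present in the normal libraries. Rgs6, a regulator of G-protein signalling (GRCm38 chromosome 12, 82588292 to 83162056), had 0.831, 0 and 1.46 CPM in p18mKO2- and 18.2, 14.8 and 17.2 in p18mKO2+ (4.46 ± 0.51, edgeR adjusted p = 0.000193). Mc4r, the melanocortin receptor known for appetite control, had 0.727, 0.38 and 1.35 CPM against values between 9.09 and 23.6. Cck, a neuropeptide, had 8, 0 and 0 counts in p18mKO2- and 56, 40 and 80 in p18mKO2+. Hs3st4, which sulphates heparan, had 2.8, 0.814 and 1.35 CPM against 18.2, 24 and 26.8, and Nxph3, a secreted neuronal protein, 1.71, 0.163 and 2.81 against 18.8, 15 and 14. Nos1, neuronal nitric oxide synthase, had 6.64, 1.3 and 5.21 CPM against 53.6, 41.1 and 21.8, and Sla, an adaptor that limits receptor signalling, 2.34, 1.14 and 4.56 against 27.8, 28.7 and 16.6. Rph3a, a Rab3 effector, changed by 3.24 ± 0.46 and the synaptic protein gene Lrrtm3 by 2.51 ± 0.39, and Thy1, a surface antigen of neurons, had 0.208, 0.109 and 0.175 CPM in p18mKO2- against 2.23, 1.23 and 1.24. Fam19a2, a secreted protein gene, rested on 1 library, with 23.9 CPM in p18mKO2+ replicate 3 against 2.71 and 3.11 in the others and 0.468 to 2.39 in p18mKO2-. In every gene of this paragraph the lowest p18mKO2+ value was above the highest p18mKO2- value. For genes chosen by the size of their change this was a condition of the choice, so it is no further evidence. Ranking by log2 change also favours genes that are low in the normal libraries.

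The smallest p-values fell on moderately expressed genes with little spread. Nav3, a neuron navigator that binds growing microtubules (GRCm38 chromosome 10, 109681259 to 110456204), had 16.8, 19.2 and 16 CPM in p18mKO2- and 73.9, 62.9 and 57.1 in p18mKO2+ (1.90 ± 0.14, edgeR adjusted p = 3.66e-05). Its relative Nav2 had 20.6, 22.1 and 18.7 CPM against 91.3, 92.7 and 71.4. Hivep2, a zinc finger factor, had 19.4, 15.1 and 24.6 CPM against 88.5, 88.3 and 74.3, and Myt1l, which represses non-neuronal programmes, 39, 26.8 and 37.9 against 142, 127 and 170. Kctd12, an auxiliary GABA-B receptor subunit, had 13.4, 14.4 and 10.1 CPM against 88.1, 68.8 and 71.7 (2.59 ± 0.23). Tmem132b, Trim67, Ppp1r16b, Mturn and, described above, Clstn2 completed the 10, the first 4 with log2 changes of 2.32, 2.13, 1.84 and 1.82. In each of these genes every p18mKO2+ value was more than the highest p18mKO2- value. The same held for 1194 of the 1224 genes that rose, so for genes chosen by p it is no further evidence.

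The largest decreases were of genes of several kinds. P3h2, which modifies collagen prolines (GRCm38 chromosome 16, 25959288 to 26105784), had 18.7, 20.8 and 10 CPM in p18mKO2- and 2.42, 2.01 and 1.32 in p18mKO2+ (-3.10 ± 0.50, edgeR adjusted p = 0.00205). Wfdc2 had 7.37, 4.29 and 3.98 CPM against 0.776, 0.869 and 0.469, Fndc3c1 19.3, 16.7 and 14.7 against 3.78, 2.47 and 2.09, and Prr15 19.5, 24.2 and 10.1 against 3.35, 3.98 and 2.3. Ror2, a Wnt5a receptor, changed by -1.79 ± 0.43, the transcriptional cofactor Eya4 by -1.82 ± 0.38, the splicing factor Rbm20 by -1.76 ± 0.39, the small heat shock protein gene Hspb8 by -1.86 ± 0.49 and the caveolin gene Cav1 by -1.92 ± 0.40. For Cav1, Eya4, Ror2 and Rbm20 the lowest normal value was that of p18mKO2- replicate 3. Of 33 matrix genes tested 5 fell and 4 rose (median -0.17), beside 3.49% lower and 7.29% higher among all genes tested. Fn1, fibronectin, had 275, 260 and 202 CPM against 115, 108 and 108 and the laminin gene Lama1 32, 35.9 and 32.2 against 19.4, 14.1 and 17.9, while Ncan, the proteoglycan neurocan, rose from 331, 291 and 423 to 637, 597 and 592.

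Embryonic globins were among the largest decreases. Hbb-y had 540, 532 and 566 CPM in p18mKO2- and 92, 62.9 and 277 in p18mKO2+ (-1.92 ± 0.45, edgeR adjusted p = 0.0147), and Hba-x 168, 144 and 168 against 25.5, 20.1 and 75.7. Both are made by primitive red cells, which later give way to cells with adult globins. The adult globin gene Hba-a1, whose copies share reads, had 561, 511 and 514 CPM against 441, 285 and 364 and was not called (-0.54 ± 0.20, edgeR adjusted p = 0.0949). Of 10 erythroid markers tested 2 fell (1 without p18mKO2+ replicate 1), and the sum over all 12 listed ran from 2010 to 2470 CPM in p18mKO2- and from 1340 to 1940 in p18mKO2+. Crabp2, a retinoic acid carrier of meningeal cells, went from 33, 28.5 and 29.8 CPM to 3.78, 5.62 and 14.5 and was the 1 of 14 meningeal markers that fell; without p18mKO2- replicate 1 or 3 or p18mKO2+ replicate 1 or 2 that list had no call. These markers summed to between 292 and 437 CPM against between 201 and 303. The part of red cells or meninges in the changes of other genes was not tested.

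Markers of other cells that the cut could hold were also measured. Endothelial and pericyte markers summed to between 194 and 261 CPM in p18mKO2- and between 264 and 292 in p18mKO2+, with 2 of 18 called: Rgs5, a pericyte gene, from 34.8, 25.8 and 31.1 CPM to 75.3, 65.9 and 58 (1.12 ± 0.16, edgeR adjusted p = 0.000955) and Cldn5, a tight junction gene, from 9.71, 8.03 and 9.07 to 18.7, 17.6 and 13.6. Without p18mKO2+ replicate 1 that list had 1 call, and among all genes tested 10.8% were called in either direction. Microglial markers summed to between 46.1 and 56.6 CPM against between 43 and 58.9, and of 15 none passed in edgeR or DESeq2 and 2 had an unadjusted p under 0.05. Of 17 markers of Cajal-Retzius cells, cortical hem and choroid plexus none passed in edgeR, 6 had an unadjusted p under 0.05 and DESeq2 called 2; they summed to 199, 565 and 286 CPM against 623, 809 and 588, and without p18mKO2+ replicate 2 edgeR called 4. The ventral markers, whose sums and median stand beside the neuronal lists above, include Gad1, which makes GABA, at 22.4, 29.5 and 22.5 CPM against 54.9, 32.9 and 115, and Lhx6, of migrating interneurons, at 27.6, 13.6 and 12.1 against 72.9, 33.4 and 32.1. With no filter on low counts 12 of the 18 were called. Without p18mKO2- replicate 3, which had the lowest ventral sum, 0 of the 18 were called, and without p18mKO2- replicate 2 or p18mKO2+ replicate 2 there were 5 and 4. The fits without p18mKO2- replicate 1, p18mKO2+ replicate 1 and p18mKO2+ replicate 3 gave 1 each.

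Of 23 astrocyte genes tested 3 rose and 2 fell (median 0.21). Beside this and the counts below, 7.29% of all genes tested rose and 3.49% fell. Aldh1l1, a folate enzyme used to mark astrocytes, had 3.22, 4.72 and 2.75 CPM in p18mKO2- and 16, 16 and 10.9 in p18mKO2+ (2.0 ± 0.23, edgeR adjusted p = 0.000212), and Luzp2 had 5.66, 4.4 and 3.74 against 27.7, 20.8 and 17.5. Gja1, connexin 43, fell from 126, 115 and 94.8 CPM to 47.5, 38.9 and 44. Gfap, the filament of mature astrocytes, had 0 counts in p18mKO2- and 3, 2 and 8 in p18mKO2+, at least 3.71-fold higher if p18mKO2- is set to 3 counts in all, and was close to absent in all 6. Of 20 gliogenic factors and cytokine pathway genes tested 1 rose and 1 fell, close to the 10.8% called among all genes. Jak2 went from 46.2, 43.5 and 39 CPM to 78.8, 63 and 78.1, and Cntfr, a receptor of gliogenic cytokines, from 126, 130 and 143 to 80.5, 99.8 and 89.8. Sox9, an early gliogenic factor, had 137, 149 and 101 CPM against 99.8, 90.3 and 71.7 and was not called (-0.57 ± 0.21, edgeR adjusted p = 0.109). Of 13 oligodendrocyte genes tested 2 rose, Olig1 from 1.25, 1.14 and 0.819 CPM to 5.62, 3.38 and 2.86, and Gpr17, whose counts summed to 3 in p18mKO2- and 101 in p18mKO2+, 28.8 times more per library size (95% counting interval 9.59 to 142). Falling astrocyte calls numbered 1 without p18mKO2+ replicate 1. Without p18mKO2+ replicate 1 or 3 Cntfr was not called, and without p18mKO2+ replicate 3 there were 3 rising gliogenic genes and 2 without p18mKO2- replicate 1 or 2.

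Some regulators whose level is known to mark the age or state of progenitors also changed. Of 18 heterochronic and imprinted growth genes tested 4 fell (median -0.07), beside 3.49% of all genes tested. Hmga2, a chromatin protein of young stem cells, had 74.4, 61.5 and 74.7 CPM in p18mKO2- and 21.9, 24.4 and 34 in p18mKO2+ (-1.39 ± 0.21, edgeR adjusted p = 0.00153), and its partner in the let-7 network Igf2bp2 had 165, 141 and 153 against 80.3, 101 and 103. Plagl1, an imprinted zinc finger gene, had 684, 614 and 1000 CPM against 364, 422 and 337. Of 32 Polycomb, DNA methylation and BAF genes 4 rose and 1 fell, beside 7.29% higher and 3.49% lower among all genes tested. Among those that rose are Actl6b, Ss18l1 and Dpf1, subunits that replace progenitor forms in the BAF complex of neurons, with log2 changes of 1.2, 1.17 and 0.79. Suz12, a core subunit of PRC2, had 271, 280 and 216 CPM against 152, 157 and 130, while its catalytic partner Ezh2 had 279, 275 and 271 against 225, 248 and 200 and was not called (-0.29 ± 0.14, edgeR adjusted p = 0.202). Without p18mKO2+ replicate 1 there were 2 falling heterochronic genes, and without p18mKO2+ replicate 2 another 3 were called higher; without p18mKO2- replicate 3 or p18mKO2+ replicate 2 there were 2 falling Polycomb or BAF genes. A further 3 lists had no call in edgeR: cholesterol synthesis, with 3 of 16 genes at an unadjusted p under 0.05 and 1 called by DESeq2, mitochondrially encoded mRNAs, with 1 of 13 and 0, and stress and immediate early genes, with 3 of 15 and 1.

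**Figure D4:**
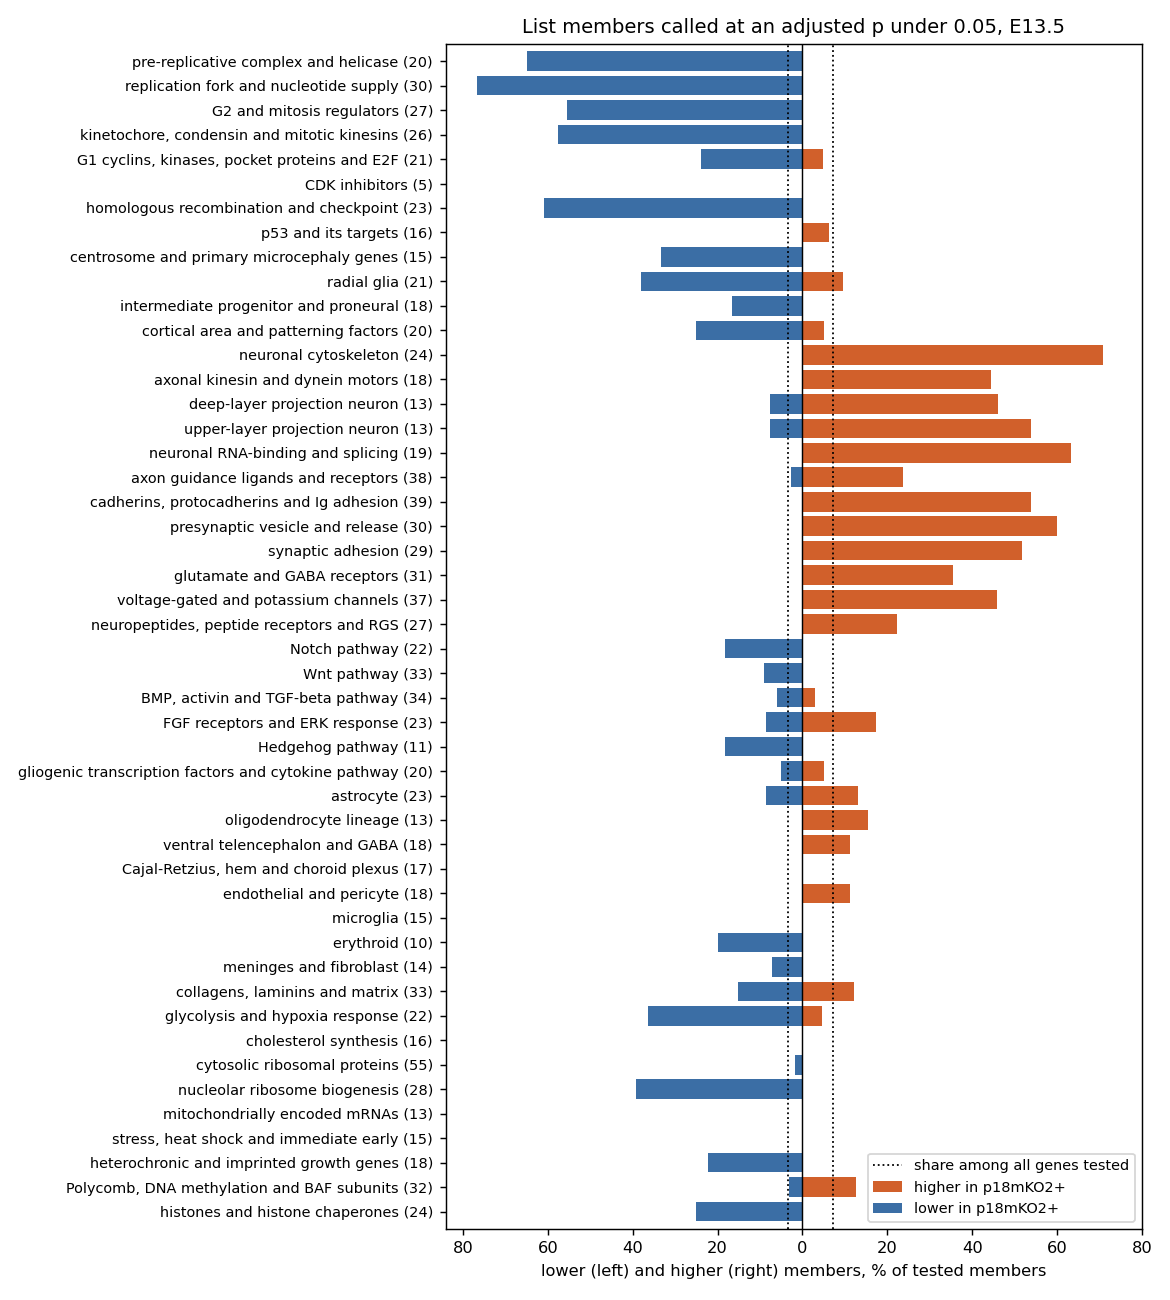
Percent of tested members that were called higher (right, orange) or lower (left, blue) in p18mKO2+ at E13.5 in each of 48 gene lists, with the number tested in brackets and dotted lines at the shares among all genes tested (7.29% higher and 3.49% lower). Cell-cycle lists extend left and neuronal lists right, and several lists of other cell types show no bar.

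Between the E16.5 groups 0 of 16798 genes were called at an adjusted p under 0.05 (edgeR), and the genes called at E13.5 lay on both sides of 0. Genes that rose at E13.5 had a median log2 change of -0.04 between the E16.5 groups, with 506 of 1224 on the same side of 0, and genes that fell a median of -0.03, with 336 of 586 on the same side. The difference between p18mKO2+ and p18mKO2- changed between stages at an adjusted p under 0.05 for 453 genes (2.7%; edgeR interaction), which include 400 of the genes that rose and 48 of those that fell. The E13.5 changes by which those genes were called enter each difference. Nav3 changed by 1.90 ± 0.14 at E13.5 and by -0.25 ± 0.13 at E16.5 (SE; edgeR adjusted p of the difference = 0.000206). Dcx changed by 1.49 ± 0.15 and -0.04 ± 0.15 (edgeR adjusted p of the difference = 0.00241), and Id4 by -1.23 ± 0.14 and 0.25 ± 0.14 (0.00181). For replication genes the difference was called in 1 of 20 and 1 of 30. Mcm2 changed by -1.0 ± 0.26 at the earlier stage and had -0.03 ± 0.26 at the later one, with an edgeR adjusted p of the difference of 0.197. The E16.5 groups also differ in sex: Y-linked transcripts stood at 81.7 to 182 CPM in the 3 p18mKO2+ libraries and at 168 CPM in 1 of 3 p18mKO2- libraries.

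**Figure D5:**
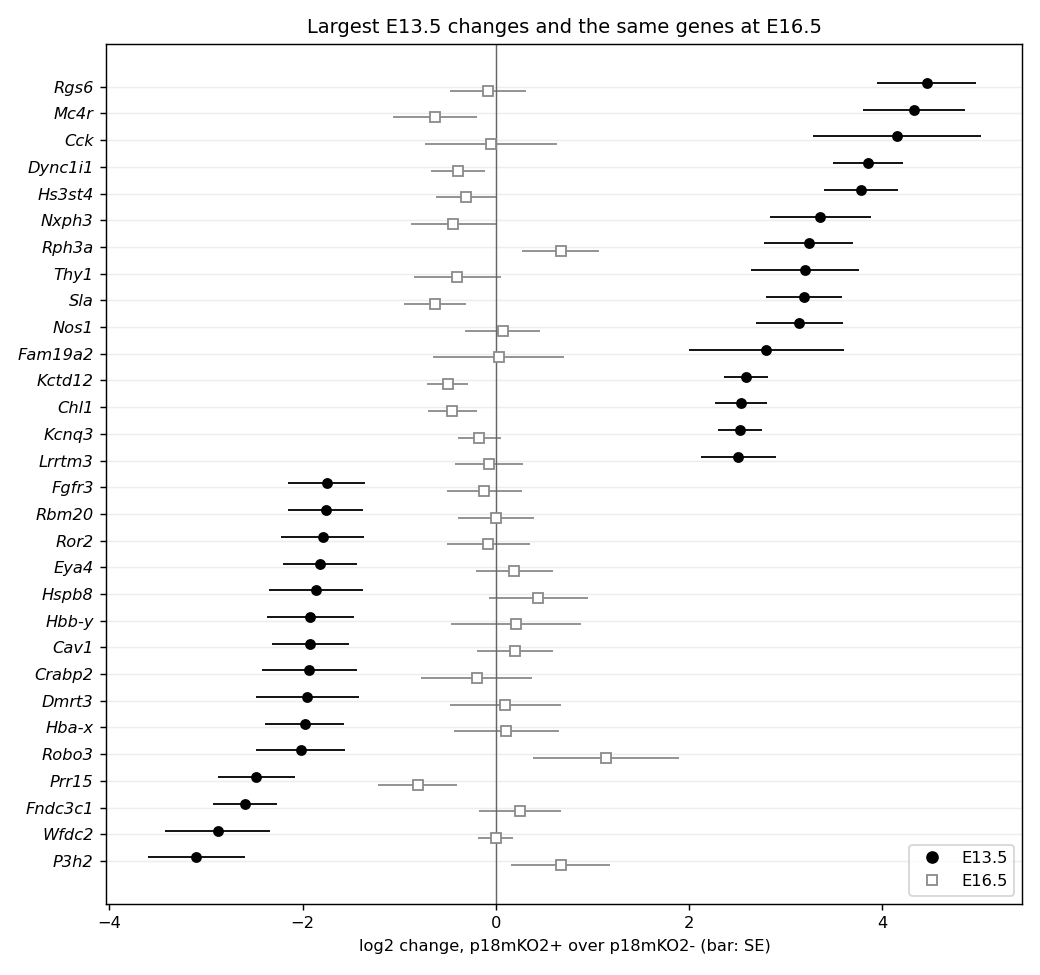
Log2 change with its SE for the 15 largest increases and 15 largest decreases at E13.5 (filled circles) and for the same genes at E16.5 (open squares). Circles lie far from 0 because the genes were chosen for it, and the E16.5 values lie between -0.81 and 1.14.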

How the data were processed

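RNA-seq of polyadenylated RNA was analysed for 12 libraries, 3 per group. Tools listed in the submitters' processing notes are RSEM 1.2.31, STAR 2.7.2b and cutadapt 3.4, with the GRCm38 build. The deposited files give an expected count and a TPM per gene, per the file headers. Expected counts were rounded to whole numbers, scaled by TMM and tested with edgeR 4.0.16 (quasi-likelihood, all 12 libraries, 1 mean per group, 8 residual degrees of freedom) after filterByExpr. P-values were adjusted by Benjamini-Hochberg over the 16798 genes tested and called under 0.05; the interaction of stage and p18 used the same fit. The standard error is the log2 change divided by the root of the F statistic. CPM are counts scaled to the TMM-adjusted library size. List levels use log2 of CPM with a small constant added. The principal components and the correlations between replicates use log2 CPM with a prior count of 2. Alternatives used limma 3.58.1, DESeq2 1.42.0 and log2(TPM + 1) in limma, with R 4.3.3. The fit was tested on simulated data. Gene positions come from GENCODE on GRCm38 and promoters from RefSeq on GRCm38.p6. Whether counting used strand is not stated in the labels, so overlapping genes may share reads. Counting intervals and floors are exact at the 95% level and cover counting error only.

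The gene lists, the genes and the comparison were chosen with earlier results of these data known. The rule for naming genes took Cdkn2c, the top 15 called genes by log2 change in each direction (no overlap between groups, mean TPM of 5 or more in the group where the gene was higher; no predicted, Riken, pseudogene, mitochondrial or Y-linked symbols), the 10 called genes of smallest p and, per list, the first 2 genes and up to 4 called genes of smallest p; others were chosen after their values were seen. A few genes that the rule names are not reported here.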

Additional observations from a re-analysis of the deposited data

Results flagged for a closer look

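The difference between p18mKO2+ and p18mKO2- changed between E13.5 and E16.5 for 73 of 169 genes named above, by edgeR's interaction test at an adjusted p under 0.05; over all genes tested the share was 2.7%. Values below are the log2 change at E16.5 minus that at E13.5, so that a negative value belongs to a gene whose change was more positive at E13.5. The genes were named partly for their E13.5 changes, which enter each difference.

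Among the largest increases at E13.5 the difference was -4.54 for Rgs6, -4.96 for Mc4r, -4.24 for Dync1i1, -4.10 for Hs3st4, -3.80 for Nxph3, -2.57 for Rph3a, -3.60 for Thy1, -3.82 for Sla, -3.08 for Nos1, -3.08 for Kctd12, -2.99 for Chl1, -2.69 for Kcnq3 and -2.58 for Lrrtm3. Among the genes of smallest p it was -2.15 for Nav3, -2.79 for Clstn2, -2.17 for Nav2, -2.61 for Hivep2, -2.29 for Tmem132b, -2.19 for Myt1l, -2.15 for Trim67, -2.01 for Ppp1r16b and -2.0 for Mturn. Of the largest decreases, P3h2 and Fndc3c1 differed, by 3.77 and 2.86.

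For genes of the cytoskeleton and motors it was -1.53 for Dcx, -0.92 for Crmp1, -1.66 for Mapt, -1.04 for Dpysl3 and -1.51 for Kif5a. For layer genes it was -1.15 for Bcl11b, -1.73 for Sox5, -0.96 for Cux2, -6.34 for Inhba, -2.47 for Mef2c, -1.79 for Unc5d and -1.45 for Pou3f2. For RNA-binding, guidance and adhesion genes it was -2.60 for Rbfox1, -1.21 for Dcc, -1.53 for Robo2, -2.59 for Opcml and -4.15 for Cdh12. For synapse, receptor and channel genes it was -1.83 for Cplx1, -1.75 for Rab3c, -1.36 for Rab3a, -1.54 for Bsn, -2.76 for Grin2b and -2.15 for Cacna1e.

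The cell-cycle genes had positive differences, 0.84 for Dbf4, 1.07 for Ccnb2, 1.15 for Spc24, 1.22 for Cenph, 1.08 for Chek1, 1.25 for Rad54l and 0.97 for H2afx. Among progenitor and signalling genes the difference was 0.94 for Sox2, 1.48 for Id4, 0.99 for Emx2, 1.32 for Hes5, 1.52 for Tcf7l1, 0.93 for Cntfr, 1.33 for Hmga2, 1.14 for Plagl1 and 0.81 for Suz12. It was negative for others of these lists, -0.90 for Trp53inp1, -1.86 for Tnc, -0.69 for Ptprz1, -0.95 for Etv1, -1.52 for Etv5, -0.87 for Jak2 and -1.15 for Ss18l1. Among markers of other cells it was -2.19 for Luzp2, -4.83 for Gpr17 and -1.20 for Rgs5. Inhba and Gpr17 rest on 3 counts over the p18mKO2- group at E13.5, so their fitted differences have no firm size.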

How the results depend on the processing

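As reported, 1224 genes were higher and 586 lower in p18mKO2+. Leaving out 1 library gave between 747 and 1266 higher and between 180 and 539 lower calls. Leaving out p18mKO2+ replicate 3, the library with transcripts of both sexes, gave 752 and 181. A covariate of Y-linked transcripts gave 727 and 251, and one of the ribosomal RNA gene 581 and 148. Leaving out both libraries that hold Y-linked transcripts, an alternative chosen after seeing the data in which the lone library is assumed to vary like the other groups, gave 405 and 39. DESeq2 gave 1716 and 965, limma-voom 1061 and 748, the E13.5 libraries alone 835 and 582, and limma on log2(TPM + 1) 930 and 133. Higher calls made up 67.6% as reported, 80.6% without p18mKO2+ replicate 1 or 3, 79.7% with the ribosomal RNA covariate, 91.2% without the libraries that hold Y-linked transcripts and 87.5% on TPM. The share was lower, at 58.7% in limma-voom, 58.9% with the E13.5 libraries alone, 63.1% with a mean CPM of at least 5 and 64% in DESeq2. The causes of these moves were not tested. Where libraries were left out, the fit also had fewer of them. Of the 169 genes named above, 53 lost their call on TPM, 49 with the ribosomal RNA covariate and 34 with the Y-linked covariate. Leaving out p18mKO2+ replicates 1, 2 and 3 in turn took the call from 44, 7 and 42 of them. Leaving out p18mKO2- replicates 1, 2 and 3 in turn took it from 27, 29 and 30.

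The change of Cdkn2c, 0.14 on the log2 scale as reported, turned to -0.02 without p18mKO2- replicate 3, -0.07 without p18mKO2+ replicate 2, -0.21 with the Y-linked covariate and -0.03 without the libraries that hold Y-linked transcripts. Leaving out 1 library gave Cdkn2c values between -0.07 and 0.27, and Cdkn1b values between -0.09, without p18mKO2+ replicate 2, and 0.27.

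The titles number the replicates, and same-numbered libraries did not deviate together, with correlations of 0.01, -0.01 and 0.03, so the numbers were not taken as pairs. A replicate block gave 1292 higher and 645 lower calls. With 3 libraries a group, the self-test recovered 64% of simulated 2-fold and 77% of 4-fold changes.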
